A study of Mus musculus with 12 samples.

Results

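Transcripts of 10 genes were followed in mouse CD4+ CD25- T cells treated with halofuginone (HF) or with MAZ1310, which the labels call its inactive derivative. They were the nuclear receptors Nr4a1, Nr4a2 and Nr4a3, the immediate early response genes Ier2, Ier3 and Ier5, and the dual-specificity phosphatases Dusp1, Dusp2, Dusp5 and Dusp6. The genes were chosen by name, and every probe set annotated to one of these symbols and to no other was kept. This gave 19 of 34945 single-symbol probe sets and 10 of 18193 genes. The main probe set of a gene was the one of highest mean intensity on the 12 arrays. The cells came from C57B/6J mice, were stimulated with antibodies against CD3 and CD28, and were cultured with TGFb and IL-6, cytokines that start Th17 differentiation. All 4 groups shared this stimulation, and they differed in compound (10 nM HF or 10 nM MAZ1310) and in time (3 h or 6 h). Each group had 3 arrays, described as biological replicates. The labels name no separate animals or cultures for them, and p-values therefore measure only the spread between these samples, which may be technical. The age and sex of the mice, and cells without either compound, are not described in the labels used here.

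The Nr4a genes encode orphan nuclear receptors that bind DNA without a known natural ligand, and T cell receptor signals induce them within hours. In T cells they are known for roles in the deletion of self-reactive thymocytes, in regulatory T cells and in exhaustion. Ier genes are a loose group named for their rapid induction by growth factors and stress. Ier2 and Ier5 are related nuclear proteins, Ier5 is linked to heat shock factor HSF1, and Ier3, also called IEX-1, is an NF-kB target linked to cell survival and ERK signalling. Dual-specificity phosphatases switch off mitogen-activated protein kinases (MAPKs) by removing phosphate from both threonine and tyrosine. Dusp1 and Dusp2 act in the nucleus on several MAPKs, Dusp5 acts in the nucleus on ERK, and Dusp6 acts on ERK in the cytoplasm. Such phosphatase genes are often induced by the pathway that their products limit.

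Promoter windows of 5 of the genes are shown because all 3 Nr4a genes were higher with HF at 6 h, while Ier3 was lower at 6 h and Dusp5 was lower at 3 h. Windows run from 250 bases before to 50 bases after the gene start, are taken from RefSeq on build GRCm38.p6, and were matched by symbol for 9 of the 10 genes, all but Ier2. The 5 windows lie at chr15:101266596-101266895 (Nr4a1, plus strand), chr2:57123954-57124253 (Nr4a2, minus strand), chr4:48045055-48045354 (Nr4a3, plus strand), chr17:35821463-35821762 (Ier3, plus strand) and chr19:53528895-53529194 (Dusp5, plus strand). Each is printed 5′ to 3′ on the strand of the gene. Capitals mark TGACG on either strand (CGTCA when read on the gene's strand), which is the core of the cAMP response element (CRE), and matches to the CArG box bound by serum response factor and to an NF-kB motif.
Nr4a1: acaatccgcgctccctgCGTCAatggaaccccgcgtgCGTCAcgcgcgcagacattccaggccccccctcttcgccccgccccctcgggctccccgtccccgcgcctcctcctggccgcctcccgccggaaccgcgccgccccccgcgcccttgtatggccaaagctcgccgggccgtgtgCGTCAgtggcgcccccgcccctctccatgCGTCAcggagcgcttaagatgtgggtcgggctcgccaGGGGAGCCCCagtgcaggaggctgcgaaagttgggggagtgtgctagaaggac
Nr4a2: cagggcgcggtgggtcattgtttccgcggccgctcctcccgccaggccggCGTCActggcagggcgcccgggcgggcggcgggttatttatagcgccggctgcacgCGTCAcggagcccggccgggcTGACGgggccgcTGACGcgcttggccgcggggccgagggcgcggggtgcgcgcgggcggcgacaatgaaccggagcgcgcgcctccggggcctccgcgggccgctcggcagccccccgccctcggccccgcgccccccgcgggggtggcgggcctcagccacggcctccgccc
Nr4a3: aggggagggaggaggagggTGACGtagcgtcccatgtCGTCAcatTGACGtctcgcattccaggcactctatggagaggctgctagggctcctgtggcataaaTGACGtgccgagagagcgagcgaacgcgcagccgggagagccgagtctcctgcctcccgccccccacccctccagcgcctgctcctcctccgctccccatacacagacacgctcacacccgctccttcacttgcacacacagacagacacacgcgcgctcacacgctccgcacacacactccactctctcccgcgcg
Ier3: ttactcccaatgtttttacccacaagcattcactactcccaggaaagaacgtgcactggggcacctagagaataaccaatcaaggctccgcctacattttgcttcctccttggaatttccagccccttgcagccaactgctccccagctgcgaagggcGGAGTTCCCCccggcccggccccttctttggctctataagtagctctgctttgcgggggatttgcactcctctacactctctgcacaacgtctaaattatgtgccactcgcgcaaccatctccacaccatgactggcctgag
Dusp5: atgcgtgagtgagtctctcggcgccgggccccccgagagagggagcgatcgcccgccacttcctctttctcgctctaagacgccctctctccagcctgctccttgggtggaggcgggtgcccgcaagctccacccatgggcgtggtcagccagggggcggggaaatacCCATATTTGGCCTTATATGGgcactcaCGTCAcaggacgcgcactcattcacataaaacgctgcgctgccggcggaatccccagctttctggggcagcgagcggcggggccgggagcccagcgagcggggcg

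The CRE core occurred 4 times in each of the 3 Nr4a windows, and 0.231% of the 32851 windows in the table held at least as many. In Nr4a1 all 4 copies stood within TGCGTCA, a motif found at least once in 2.12% of windows. The windows of these genes are counted in all such shares, and only the Nr4a1 window itself held at least 4 copies of TGCGTCA (0.00304%). Dusp1 held 3 cores, of which a pair overlapped in a full CRE (TGACGTCA, in 1.79% of windows), and 1.03% of windows held at least 3. Dusp2 and Dusp5 held 1 core each, 20.8% of windows held at least 1, and Ier3, Ier5 and Dusp6 held 0. The CArG box was found in Dusp5, as 2 adjacent copies, and in 1.63% of all windows. The NF-kB motif was found in Nr4a1 and Ier3 (4.51% of windows), the EGR motif GCGGGGGCG in Nr4a1 and Dusp2 (2.91%), and the MEF2 motif in Nr4a2 (3.19%), where it overlapped a TATAAA match. AP-1 (TGANTCA), C/EBP-ATF (TGATGNAA), the Nr4a element NBRE (AAAGGTCA), NFAT (GGAAAA) and ETS (CCGGAAGT) had 0 matches in the 9 windows, against 7.81%, 3.97%, 1.51%, 23.4% and 3.89% of all windows. Both strands were searched for every motif, and TGACG and TGCGTCA were added after the sequences had been seen. These matches describe letters in a window and do not show that a factor binds there.

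Median log2 levels per array ran from 6.60 to 6.68, and arrays of one group correlated at r = 0.9923 to 0.9974 across genes. Of 34 measured markers of other blood cells (erythroid, myeloid and B cells, cells that present through MHC class II, NK and CD8 T cells), limma called 0 at 3 h and 0 at 6 h, with 3 and 4 at an unadjusted p under 0.05. The summed level of the MHC class II list ran from 10.13 to 11.40 over all arrays, and that list's Cd74 reached 9.73 and H2-Aa 9.32. Of 10 measured T cell markers, 0 were called at 3 h (2 at an unadjusted p under 0.05). At 6 h 8 were called lower with HF, against 11.7% of all genes, and the median over the 10 markers was -0.51. Their summed log2 level was 14.45 to 14.62 with HF at 6 h and 14.95 to 15.04 with MAZ1310, and 14.82 to 15.08 with HF at 3 h against 14.94 to 15.23. The 3′ minus 5′ signal of the actin control, a sign of RNA quality, was 1.25 ± 0.279 with HF and 1.03 ± 0.22 with MAZ1310 at 3 h (SD, n = 3, exact permutation p = 0.5), and 1.07 ± 0.261 against 0.86 ± 0.139 at 6 h (exact permutation p = 0.4). The Gapdh control gave 0.29 ± 0.227 against 0.01 ± 0.139 at 3 h (exact permutation p = 0.1) and 0.10 ± 0.222 against -0.09 ± 0.111 at 6 h (exact permutation p = 0.3). The tests were two-sided, 0.1 is the smallest p that 3 against 3 allows, and HF was higher in 3 of 3 equally numbered pairs for both controls at both times. The part of the T cell markers in the results that follow was not tested. An alternative fit held the replicate number and the actin difference. Because that difference was higher with HF in every pair, the fit cannot tell RNA quality and compound apart, and the part of RNA quality was not tested otherwise. In such bulk samples, fewer cells of a type and less RNA per cell cannot be told apart.

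The comparison at 3 h addressed early differences between HF and MAZ1310. Nr4a2 and Nr4a3 were higher with HF by 0.51 ± 0.10 and 0.55 ± 0.12 on the log2 scale (SE, 3 arrays a group), and Dusp5 was lower by a log2 difference of -0.44 ± 0.11. The other 7 genes did not pass the test, an adjusted p under 0.05 from limma over all genes, in the fit without a block. With the replicate number as a block Ier2 and Dusp6 passed as well. Without the block the test called 9.49% of all genes, 2.83% higher and 6.66% lower, against 3 of these 10. The 10 genes had a median difference of 0.04, and all genes 0.03. HF and MAZ1310 arrays did not overlap for 3 of the 10 genes and for 22.8% of all genes.

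At 6 h the same question was asked of the later arrays. Nr4a1, Nr4a2, Nr4a3, Ier2 and Ier5 were higher with HF by 0.48 to 0.94 on the log2 scale, and Ier3 was lower, at -1.69 ± 0.13. The 4 phosphatases did not pass the test in the fit of all 12 arrays without a block. Dusp1 passed with the replicate number as a block, and both Dusp1 and Dusp2 passed when only the groups of 6 h were fitted. In the fit of all 12 arrays without the block 17.0% of all genes were called, 5.22% higher and 11.7% lower, against 6 of these 10, 5 higher and 1 lower. The median difference was 0.37 for the 10 genes and 0.02 for all genes. Arrays of the compounds did not overlap for 9 of the 10 genes, all but Dusp6, and for 36.8% of all genes.

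**Figure D1:**
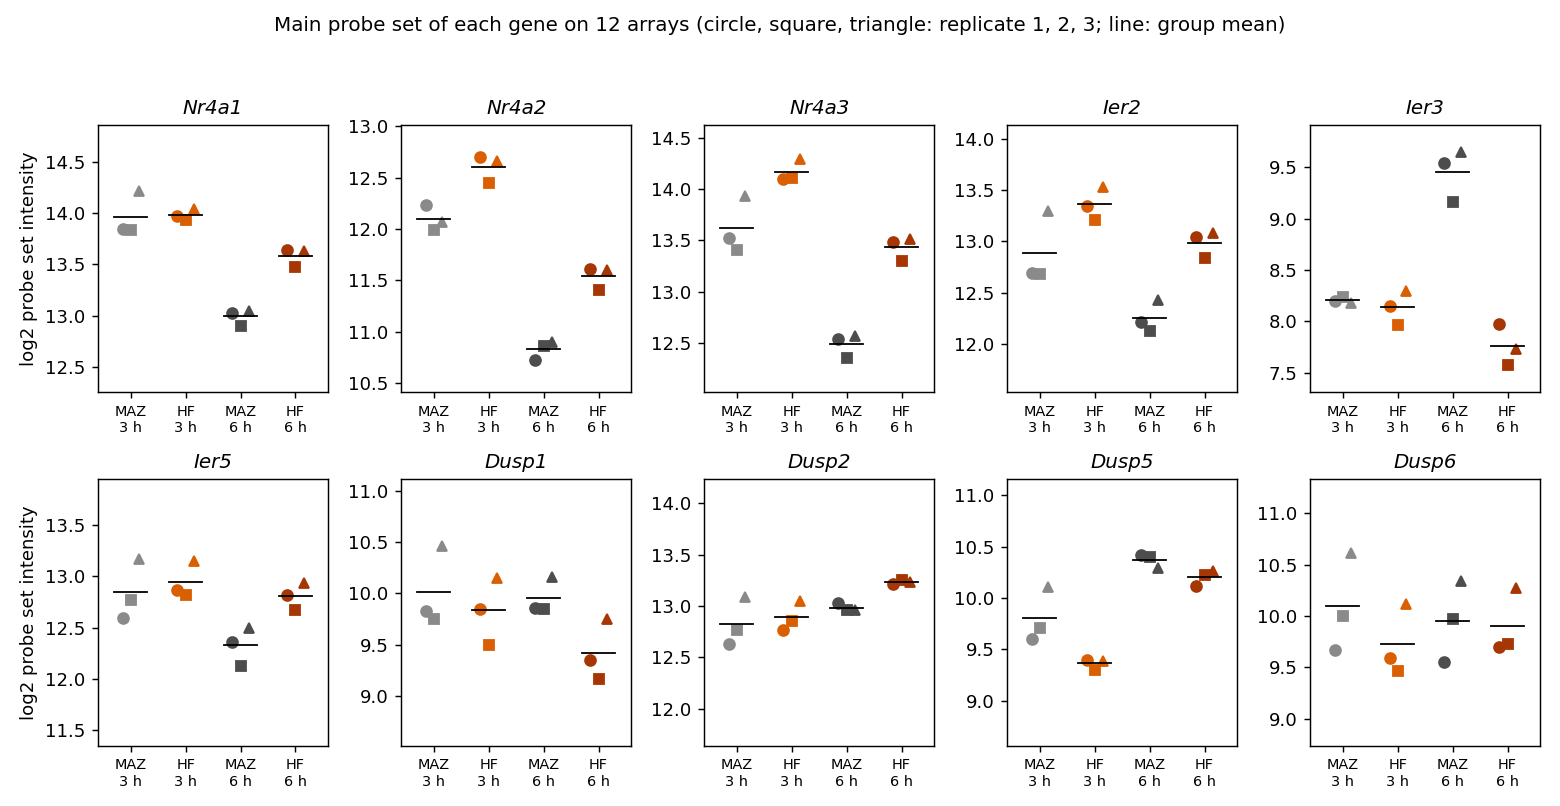
Log2 intensity of the main probe set of each of the 10 genes (vertical axis, of equal length in every panel) on the 12 arrays, by compound and time (horizontal axis). Symbols give the replicate number and lines the group mean. Nr4a2 falls from 12.09 to 10.82 with MAZ1310 while Ier3 climbs from 8.21 to 9.45, and Ier3 with HF at 6 h lies at 7.57 to 7.97.

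Nr4a1, also known as Nur77 and widely used as a reporter of T cell receptor signalling, had log2 levels of 13.84, 13.83 and 14.21 with MAZ1310 and 13.97, 13.93 and 14.04 with HF at 3 h. The groups overlapped, and the difference of 0.02 ± 0.10 had a 95% interval of -0.20 to 0.24. At 6 h the levels were 13.03, 12.90 and 13.05 with MAZ1310 and 13.64, 13.47 and 13.63 with HF. Here all HF arrays lay above all MAZ1310 arrays, and Nr4a1 was 1.51-fold higher (0.59 ± 0.10, adjusted p = 0.000712). The groups at 3 h were the highest and overlapped each other, HF at 6 h came next, and MAZ1310 at 6 h was lowest. With the actin difference and replicate number in the fit the call at 6 h was lost (0.47, adjusted p = 0.0855).

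Nr4a2, or Nurr1, is the receptor best known for its part in dopamine neurons, and it can also drive Foxp3 in T cells. Its levels were 12.23, 11.99 and 12.07 with MAZ1310 and 12.70, 12.45 and 12.66 with HF at 3 h, and 10.72, 10.86 and 10.90 against 11.61, 11.41 and 11.60 at 6 h. On this main probe set HF was above MAZ1310 on every array at both times. The 4 groups did not overlap, in the order HF at 3 h, MAZ1310 at 3 h, HF at 6 h and MAZ1310 at 6 h. The increase was 1.42-fold at 3 h (95% interval 0.30 to 0.72 in log2, adjusted p = 0.00336) and 1.64-fold at 6 h (0.72 ± 0.10, interval 0.51 to 0.92, adjusted p = 8.48e-05). Without the 4 arrays numbered 3 the call at 3 h was lost at a similar size (0.47, adjusted p = 0.0581).

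Nr4a3, or NOR-1, had levels of 13.52, 13.40 and 13.93 with MAZ1310 and 14.10, 14.11 and 14.29 with HF at 3 h. At 6 h they were 12.54, 12.35 and 12.57 with MAZ1310 and 13.48, 13.30 and 13.51 with HF. HF was above MAZ1310 without overlap at both times, and HF arrays at 6 h overlapped the MAZ1310 arrays of 3 h. Nr4a3 was 1.46-fold higher at 3 h (interval 0.29 to 0.81, adjusted p = 0.00949) and 1.92-fold higher at 6 h (0.94 ± 0.12, interval 0.68 to 1.20, adjusted p = 5.89e-05). The call at 3 h was lost without the arrays numbered 1 (0.53, adjusted p = 0.12) or 2 (0.47, adjusted p = 0.104), and with replicate number and actin difference in the fit (0.36, adjusted p = 0.315).

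Ier2, a nuclear protein that takes part in transcription, had levels of 12.69, 12.68 and 13.29 with MAZ1310 and 13.34, 13.21 and 13.53 with HF at 3 h. One MAZ1310 array, replicate 3, reached into the HF range, and the difference of 0.47 ± 0.15 did not pass (adjusted p = 0.0583). It passed with the replicate number as a block (adjusted p = 0.00408), after cyclic loess between arrays (0.53, adjusted p = 0.0158) and without that array (0.67, adjusted p = 0.00206). Later levels, at 6 h, were 12.21, 12.13 and 12.43 with MAZ1310 and 13.04, 12.84 and 13.08 with HF. The groups did not overlap, and Ier2 was 1.66-fold higher (0.73 ± 0.15, interval 0.42 to 1.04, adjusted p = 0.00221). Leaving out the arrays numbered 1 ended this call (0.68, adjusted p = 0.0713). HF arrays at 6 h lay within the range of the MAZ1310 arrays of 3 h.

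Ier3 moved the other way. At 3 h its levels were 8.20, 8.24 and 8.18 with MAZ1310 and 8.15, 7.96 and 8.30 with HF. The groups overlapped, with a difference of -0.07 ± 0.13 and a 95% interval of -0.35 to 0.21. After 6 h they were 9.54, 9.16 and 9.65 with MAZ1310 and 7.97, 7.57 and 7.73 with HF. Every MAZ1310 array at 6 h was above every other array of the study, and the highest HF array of 6 h, at 7.97, was just above the lowest of 3 h, at 7.96. Ier3 was 3.23-fold lower with HF at 6 h (-1.69 ± 0.13, interval -1.97 to -1.42, adjusted p = 3.46e-07), which ranked 18 from the lowest of the 18193 genes. It was read by only 1 probe set, and its levels with HF at 6 h were not far above the array medians.

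Ier5 had levels of 12.59, 12.77 and 13.17 with MAZ1310 and 12.87, 12.82 and 13.15 with HF at 3 h, which overlapped (0.10 ± 0.14, interval -0.20 to 0.40). After 6 h the levels were 12.36, 12.13 and 12.50 with MAZ1310 and 12.82, 12.67 and 12.94 with HF. The groups stood apart, and Ier5 was 1.39-fold higher (0.48 ± 0.14, interval 0.18 to 0.78, adjusted p = 0.0264). This call held in 10 of 18 alternatives. It was lost as the mean of the 3 probe sets (0.35, adjusted p = 0.208), with replicate number and actin difference in the fit (0.31, adjusted p = 0.358), without the arrays numbered 1 or 2, and without HF replicate 1 or 3 or MAZ1310 replicate 1 or 2 of 6 h, with adjusted p-values of 0.0616 to 0.16 where arrays were left out.

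Dusp1, or MKP-1, had levels of 9.83, 9.75 and 10.46 with MAZ1310 and 9.85, 9.50 and 10.15 with HF at 3 h, which overlapped (-0.18 ± 0.19, interval -0.59 to 0.23). Levels at 6 h were 9.86, 9.85 and 10.16 with MAZ1310 and 9.35, 9.17 and 9.75 with HF. The groups did not overlap, but the difference of -0.54 ± 0.19 did not pass (interval -0.95 to -0.12, adjusted p = 0.076). With the replicate number as a block it did (adjusted p = 0.000575). It also passed when only the groups of 6 h were fitted (adjusted p = 0.022). The same held without HF replicate 3 of 6 h (-0.70, adjusted p = 0.0317) and without the arrays numbered 3 (-0.60, adjusted p = 0.00709). In 14 of 18 alternatives it stayed uncalled.

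Dusp2, or PAC-1, a phosphatase found mainly in blood cells, had levels of 12.63, 12.77 and 13.09 with MAZ1310 and 12.77, 12.86 and 13.05 with HF at 3 h, with a difference of 0.06 ± 0.11 (interval -0.17 to 0.29). At 6 h they were 13.03, 12.96 and 12.96 with MAZ1310 and 13.22, 13.25 and 13.24 with HF. The 3 HF arrays lay above the MAZ1310 arrays, at 0.25 ± 0.11 (interval 0.02 to 0.48, adjusted p = 0.141). This difference passed when only the groups of 6 h were fitted (adjusted p = 0.0186) and stayed uncalled in 17 of 18 alternatives.

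Dusp5 had levels of 9.60, 9.71 and 10.11 with MAZ1310 and 9.40, 9.30 and 9.39 with HF at 3 h. At 6 h they were 10.42, 10.40 and 10.29 with MAZ1310 and 10.12, 10.22 and 10.26 with HF. HF lay below MAZ1310 without overlap at both times, and the 4 groups did not overlap, with MAZ1310 at 6 h highest and HF at 3 h lowest. Dusp5 was 1.36-fold lower with HF at 3 h (interval -0.67 to -0.20, adjusted p = 0.0189) and did not pass at 6 h (-0.17 ± 0.11, interval -0.41 to 0.06, adjusted p = 0.359). The call at 3 h was lost when only the groups of 3 h were fitted (adjusted p = 0.0877), with replicate number and actin difference in the fit (-0.51, adjusted p = 0.234), without HF replicate 2 (-0.41, adjusted p = 0.0729), and without the arrays numbered 2 (-0.46, adjusted p = 0.158) or 3 (-0.30, adjusted p = 0.102).

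Dusp6, or MKP-3, had the widest spread within groups. Its levels were 9.67, 10.00 and 10.61 with MAZ1310 and 9.59, 9.46 and 10.12 with HF at 3 h, and 9.55, 9.97 and 10.34 against 9.70, 9.73 and 10.27 at 6 h. All 4 groups overlapped. The difference was -0.37 ± 0.24 at 3 h (interval -0.88 to 0.15, adjusted p = 0.417) and -0.05 ± 0.24 at 6 h (interval -0.57 to 0.46). At 3 h HF was lower in 3 of 3 equally numbered pairs, and with the replicate number as a block the difference passed (adjusted p = 0.0277).

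**Figure D2:**
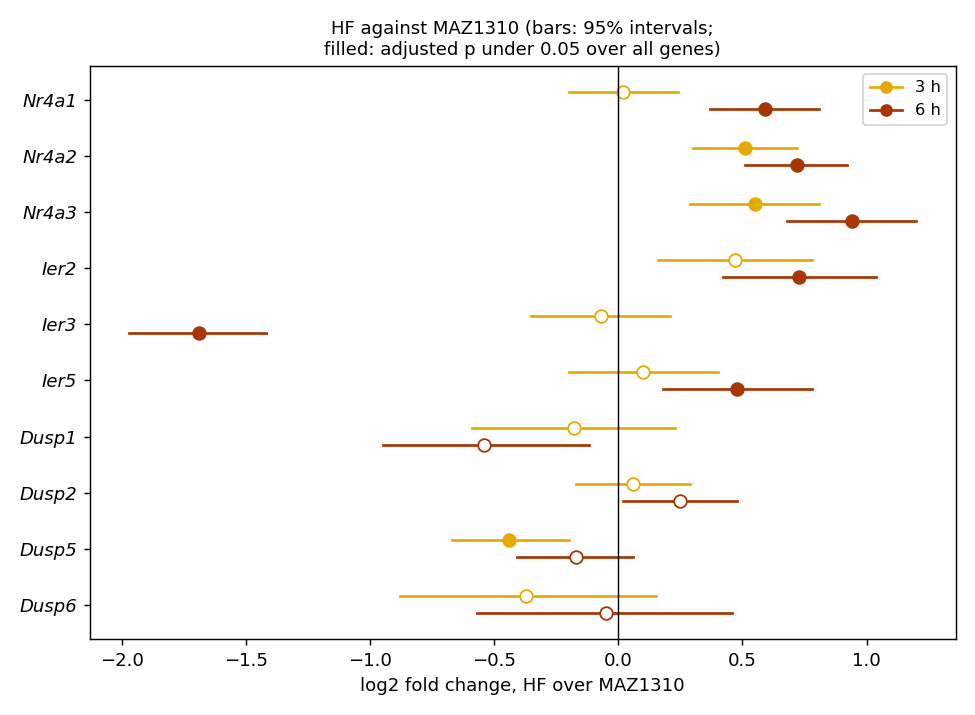
Log2 fold change of HF over MAZ1310 (horizontal axis) for each of the 10 genes (vertical axis) at 3 h and 6 h, with 95% intervals as bars and filled points for an adjusted p under 0.05. For 6 h the 3 Nr4a genes sit at 0.59, 0.72 and 0.94 and Ier3 at -1.69, while the 4 Dusp points are open.

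Whether the difference between compounds itself changed from 3 h to 6 h was tested as the effect at 6 h minus that at 3 h. Ier3 passed, at -1.62 ± 0.18 (interval -2.01 to -1.23, adjusted p = 0.00071), which was rank 2 from the lowest of all genes. It passed in all 23 alternatives, at -1.78 to -1.41, with adjusted p-values up to 0.0469. Over all genes 1.80% passed, and 1 of the 10 genes did. Nr4a1 had the next largest value, 0.57 ± 0.14 (interval 0.26 to 0.88, adjusted p = 0.0621), and passed with the replicate number as a block (adjusted p = 0.017). Nr4a2 (0.21 ± 0.14), Nr4a3 (0.39 ± 0.17), Ier2 and Ier5 were called at 6 h, but a difference from their values at 3 h did not pass, with adjusted p-values of 0.353 to 0.721. For Dusp5, called at 3 h and not at 6 h, the difference of effects was 0.27 (adjusted p = 0.545).

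The comparisons of 6 h with 3 h within a compound gave the course over time, and they share their arrays with the comparisons between compounds. With MAZ1310 the 3 Nr4a genes, Ier2 and Ier5 fell from 3 h to 6 h, and Ier3 and Dusp5 rose. Nr4a2 fell by 1.27 ± 0.10 (adjusted p = 3.75e-07), Nr4a3 by 1.13 ± 0.12 (adjusted p = 1.07e-05) and Nr4a1 by 0.97 ± 0.10 (adjusted p = 8.1e-06). Ier3 rose 2.37-fold (1.24 ± 0.13, adjusted p = 7.25e-06), which was rank 66 from the highest of all genes. Of all genes 19.8% were called, 12.1% higher and 7.64% lower at 6 h, against 7 of these 10, 2 higher and 5 lower. Ier2 fell by 0.63 ± 0.15 (adjusted p = 0.00518) and Ier5 by 0.52 ± 0.14 (adjusted p = 0.0153), and Dusp5 rose by 0.57 ± 0.11 (adjusted p = 0.0015). Without the arrays numbered 1, Ier2 (adjusted p = 0.0507) and Dusp5 (adjusted p = 0.0697) lost their calls, and that of Ier5 was lost without those numbered 2 (-0.45), without MAZ1310 replicate 3 of 3 h (-0.35) or replicate 2 of 6 h (-0.42), as the mean of its probe sets (-0.17), and with replicate number and actin difference in the fit (-0.38).

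With HF the 3 Nr4a genes fell as well, and Dusp2 and Dusp5 rose. Nr4a2 fell by 1.06 ± 0.10 (adjusted p = 2.99e-06), Nr4a3 by 0.73 ± 0.12 (adjusted p = 0.000577) and Nr4a1 by 0.40 ± 0.10 (adjusted p = 0.0134), the last lost without HF replicate 3 of 3 h or replicate 2 of 6 h, without the arrays numbered 1 or 2, and with replicate number and actin difference in the fit (-0.43 to -0.29). Dusp5 rose by 0.83 ± 0.11 (adjusted p = 7.5e-05) and Dusp2 by 0.34 ± 0.11 (adjusted p = 0.0415), a call of Dusp2 that was lost in 9 of 18 alternatives, among them cyclic loess (0.26) and leaving out any HF array but replicate 3 of 3 h. Ier3 stood at -0.38 ± 0.13 (adjusted p = 0.0621), against an increase of 1.24 with MAZ1310. Of all genes 15.6% were called, 8.33% higher and 7.27% lower, against 5 of these 10, 2 higher and 3 lower. With the replicate number as a block 8 of the 10 were called, with Ier2 (-0.37, adjusted p = 0.0115), Ier3 (adjusted p = 0.0178) and Dusp1 (-0.41, adjusted p = 0.0045) added as lower at 6 h. The share of all genes called with that block is not given here, so this count has none beside it. The test of whether the change over time differs between compounds is the same as the test of the difference of effects above.

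**Figure D3:**
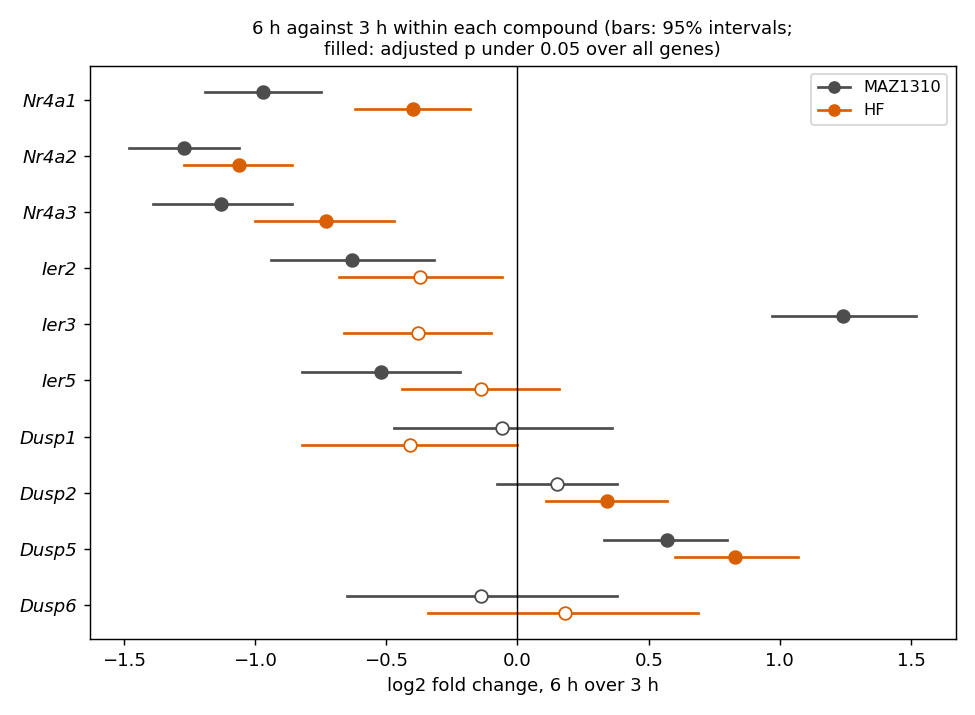
Log2 fold change of 6 h over 3 h (horizontal axis) for each gene (vertical axis), with MAZ1310 in grey and HF in orange, 95% intervals as bars and filled points for an adjusted p under 0.05. The Nr4a genes lie left of 0 with both compounds, and Ier3 lies at 1.24 with MAZ1310 and -0.38 with HF.

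Nr4a2, Nr4a3 and Ier5 had more than 1 probe set. When every probe set was tested on its own, 6 of the 19 were called at 3 h, 5 higher and 1 lower, against 5.68% of the 45037 probe sets tested (all but the array controls), and 8 of the 19 at 6 h, 7 higher and 1 lower, against 11.1%. For Nr4a2, 4 of 6 probe sets were called at 3 h and 3 of 6 at 6 h. Its bright probe sets gave log2 differences of 0.51, 0.57, 0.73 and 0.59 at 3 h and 0.72, 0.75, 0.87 and 0.55 at 6 h, and the fourth of these did not pass at either time (adjusted p = 0.193 and 0.186). One of its dim probe sets, with a mean of 6.93, differed by 0.80 ± 0.22 at 3 h (adjusted p = 0.0443) and by 0.26 at 6 h. It read 5.76 on MAZ1310 replicate 3 at 3 h, against 6.79 and 6.87 on the other MAZ1310 arrays of that time. Its other dim probe set, with a mean of 6.28, differed by 0.05 and 0.13 and did not pass. Both lay near the array medians, as did the other probe sets of Nr4a3, with means of 7.03 and 7.68. The probe set of Nr4a3 at 7.03 differed by 0.66 ± 0.21 at 3 h (adjusted p = 0.0979) and 0.67 ± 0.21 at 6 h (adjusted p = 0.0594), and that at 7.68 by 0.26 and 0.14. The other probe sets of Ier5 differed by 0.01 ± 0.31 and 0.19 ± 0.13 at 3 h and by 0.37 ± 0.31 and 0.19 ± 0.13 at 6 h, and neither passed.

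**Figure D4:**
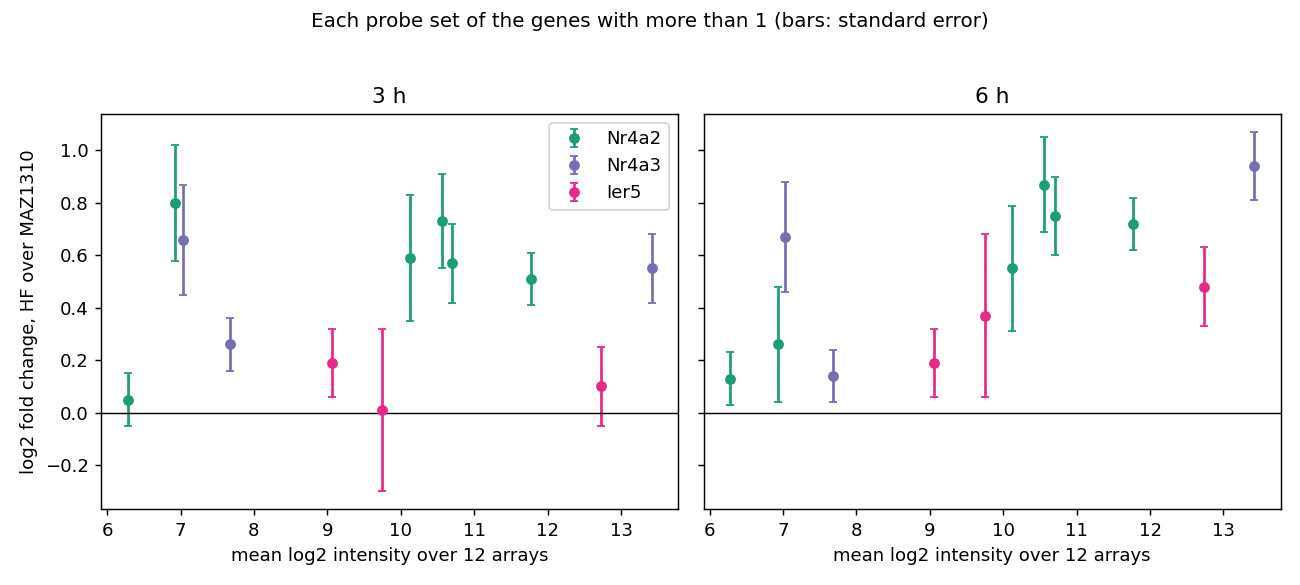
Log2 fold change of HF over MAZ1310 (vertical axis, bars are SE) against mean log2 intensity over 12 arrays (horizontal axis) for every probe set of Nr4a2, Nr4a3 and Ier5, at 3 h (left) and 6 h (right). For 6 h the bright Nr4a2 probe sets lie at 0.55 to 0.87, and those with means of 6.28 and 6.93 at 0.13 and 0.26.

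Within groups, 8 of these genes deviated from the group mean together. Replicate 3 with MAZ1310 at 3 h was the highest of its group for 8 of the 10 genes, with a median deviation of 0.31 and a largest of 0.52. Arrays numbered 3 were also the highest for 8 genes with HF at 3 h, 8 with MAZ1310 at 6 h and 6 with HF at 6 h. Deviations of 29 of the 45 pairs of genes correlated above 0.5 over the 12 arrays (64.4%), against 12.2% of all gene pairs, with a median r of 0.66 and the highest value, 0.98, for Nr4a1 and Nr4a3. Nr4a2 had no value above 0.5 (-0.27 to 0.46), and Ier3 only that with Ier5 (0.53), so the others are the pairs among the remaining 8 genes. These are descriptions over arrays that share a processing, with no p. The levels themselves correlated at a median of 0.12, from -0.92 for Nr4a2 and Dusp5 to 0.96 for Nr4a3 and Ier2. Without replicate 3 of MAZ1310 at 3 h, the differences at 3 h were 0.49 for Nr4a2 (adjusted p = 0.01), 0.71 for Nr4a3 (adjusted p = 0.000592) and -0.29 for Dusp5 (adjusted p = 0.0482), against 0.51, 0.55 and -0.44 with it. Nr4a1 then stood at 0.15, Ier5 at 0.26, Dusp2 at 0.19, Dusp1 at 0.04 and Dusp6 at -0.11, none of which passed.

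**Figure D5:**
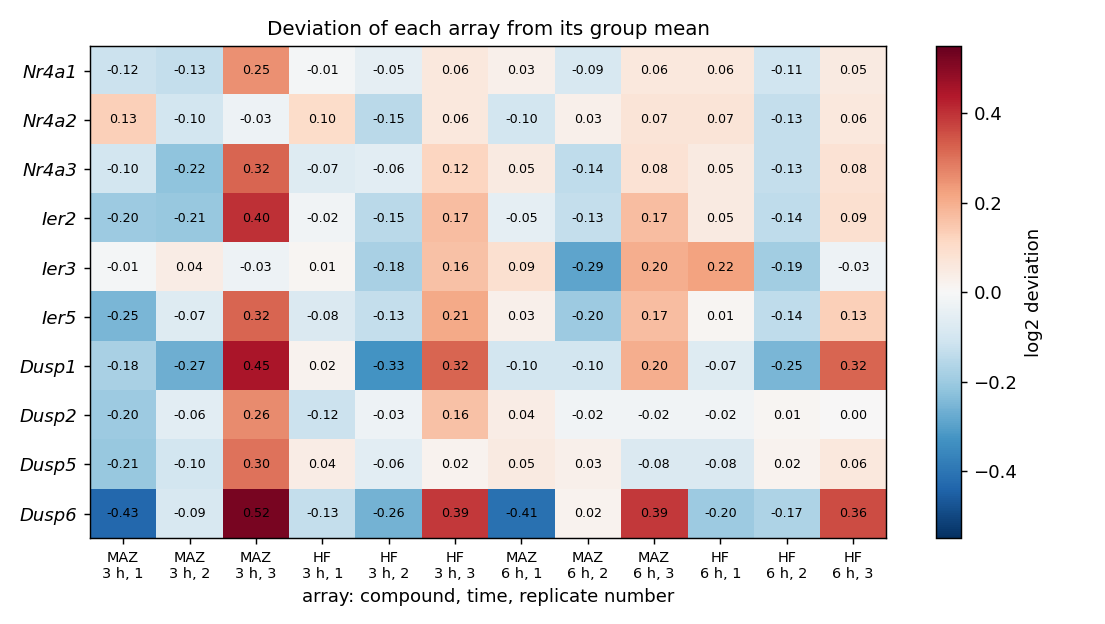
Deviation of each array (horizontal axis) from the mean of its group on the log2 scale, for each of the 10 genes (vertical axis), in colour and as printed values. The column of MAZ1310 replicate 3 at 3 h is positive for 8 of the 10 genes, up to 0.52.

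Genes around these 10 were counted in 5 lists written with earlier results of these data known. Beside the counts of HF against MAZ1310 stand the 9.49% of all genes called at 3 h and the 17.0% called at 6 h. Those shares are from the fit without a block, and none are given here for the alternatives. Among 35 other immediate early genes, the class to which Nr4a and Ier genes belong, 15 rose and 1 fell with HF at 3 h, and 20 rose and 2 fell at 6 h, with medians of 0.28 and 0.45. Atf3, a stress-induced factor that binds CRE sites, rose by 1.61 ± 0.13 and 1.69 ± 0.13 (adjusted p = 1.7e-06 and 3.15e-07). Egr1, a zinc finger factor downstream of ERK, rose by 0.66 ± 0.11 and 1.13 ± 0.11, and the AP-1 subunit gene Fosl2 by 0.50 ± 0.10 and 1.06 ± 0.10. The kinase gene Plk2 fell by 1.13 ± 0.13 at 6 h (adjusted p = 1.53e-05), and its difference of effects passed, at -0.99 (adjusted p = 0.0116). As the mean of its probe sets Plk2 stood at -0.48 at 6 h, still called. At 3 h the call of Fosl2 was lost without the arrays numbered 1 (0.48, adjusted p = 0.103) or 2 (0.48, adjusted p = 0.0584), and with replicate number and actin difference in the fit those of Fosl2 (0.38, adjusted p = 0.229) and Egr1 (0.57, adjusted p = 0.114) were lost. From 3 h to 6 h 3 of the 35 rose and 24 fell with MAZ1310, where 12.1% of all genes rose and 7.64% fell. With HF 3 of the 35 rose and 18 fell, where 8.33% of all genes rose and 7.27% fell. The count at 3 h was 10 without the arrays numbered 1, 9 without those numbered 2, and 4 with replicate number and actin difference in the fit, where that at 6 h was 14.

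Of 16 other dual-specificity phosphatases, 1 rose at 3 h, when 2.83% of all genes were called higher and 9.49% called in either direction. At 6 h 2 fell, when 11.7% of all genes were called lower and 17.0% called in either direction. Medians over the 16 were 0.07 and 0.02, and 4 passed at 6 h with the replicate block. Dusp16, which acts on JNK and p38, rose by 0.48 ± 0.11 at 3 h (adjusted p = 0.0138), and Dusp10, which acts on the same kinases, and Dusp19 fell by 0.46 ± 0.12 (adjusted p = 0.0122) and 0.33 ± 0.10 (adjusted p = 0.0265) at 6 h. Each of these calls was lost in 6 or 7 of 18 alternatives, and on probe sets without a suffix Dusp16 stood at 0.21 and Dusp19 at -0.71. Of 17 feedback inhibitors of Ras and ERK, 3 fell at 3 h, and 2 rose and 4 fell at 6 h, with medians of -0.08 and -0.04, and 5 passed at 3 h with the replicate block. Rasa3, a Ras GTPase-activating protein gene, fell by 1.08 ± 0.12 at 6 h (adjusted p = 1.36e-05), and its relative Rasal3 by 0.56 ± 0.10 at 3 h and 0.63 ± 0.10 at 6 h. Both calls of Rasal3 were lost with replicate number and actin difference in the fit (-0.38, adjusted p = 0.339, and -0.46, adjusted p = 0.135). The adaptor gene Lax1 fell by 0.50 ± 0.13 (adjusted p = 0.0109) and Spred3 rose by 0.36 ± 0.10 (adjusted p = 0.0193) at 6 h, calls lost in 6 and 7 alternatives. Of 16 measured genes of the MAPK cascade out of 23 listed, 1 rose and 3 fell at 3 h, and 2 rose and 4 fell at 6 h, with medians of -0.12 and 0.02. Rasgrp1, the exchange factor that loads Ras below the T cell receptor, rose by 1.02 ± 0.11 (adjusted p = 2.95e-05) and 0.88 ± 0.11 (adjusted p = 3.22e-05). The kinase genes Map2k1 and Map2k2, which encode MEK1 and MEK2, fell by 0.52 ± 0.09 and 0.41 ± 0.10 at 3 h and by 0.65 ± 0.09 and 0.46 ± 0.10 at 6 h, and Mapk14, which encodes p38, fell by 0.73 ± 0.11 at 6 h. The call of Map2k2 was lost in 9 of 18 alternatives at 3 h and in 3 at 6 h. With replicate number and actin difference in the fit, Map2k1 at 3 h (-0.52, adjusted p = 0.0944) and Mapk14 at 6 h (-0.60, adjusted p = 0.0925) lost their calls. With probe sets averaged, Rasgrp1 stood at 0.64 and 0.45, Map2k2 at -0.26 at 3 h, and Mapk14 at -0.20 at 6 h, all still called.

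Of 21 genes of the calcineurin, NFAT, MEF2 and SRF system, which links the T cell receptor to Nr4a transcription, 1 rose and 3 fell at 3 h, and 3 rose and 5 fell at 6 h, with medians of -0.08 and 0.04, and 7 passed at 3 h with the replicate block. Nfatc2, a main NFAT factor of T cells, fell by 0.69 ± 0.15 at 3 h (adjusted p = 0.00796) and 1.51 ± 0.15 at 6 h (adjusted p = 4.71e-06). As the mean of its probe sets it stood at -0.10 at 3 h (adjusted p = 0.438) and -0.23 at 6 h (adjusted p = 0.0311), and its call at 3 h was also lost with replicate number and actin difference in the fit (-0.23, adjusted p = 0.661). Elk3, a partner of serum response factor, fell by 1.55 ± 0.13 at 6 h (adjusted p = 7.39e-07), with a difference of effects of -1.17 (adjusted p = 0.00417). Crem, a CRE-binding factor, rose by 0.98 ± 0.22 (adjusted p = 0.00488), and Hdac7, a repressor that holds Nr4a1 down in thymocytes, fell by 0.76 ± 0.12 (adjusted p = 0.000433). The call of Crem was lost without the arrays numbered 1 (0.92, adjusted p = 0.0926), and as the mean of their probe sets Crem stood at 0.43 and Elk3 at -0.90, both still called. With replicate number and actin difference in the fit, the counts of these 4 smaller lists were 0, 0, 1 and 1 at 3 h and 0, 1, 2 and 5 at 6 h, in the order given.

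In each family the gene whose group means spanned the widest range was compared with 9087 genes at or above the median level, by Pearson's r over the 12 arrays. Nr4a2 spanned 1.78, and the genes most like it were Egr3 (r = 0.992), which encodes a zinc finger factor induced by calcineurin signals, Stambpl1 (0.988) and Arhgef10 (0.987). Their differences between compounds were 0.56, 0.35 and 0.86 at 3 h and 0.88, 0.74 and 1.26 at 6 h. Ier3 spanned 1.69 and was followed most closely by Snrnp25 (0.951), Zmynd8 (0.946) and Yipf1 (0.944), with differences of -0.99, -1.27 and -0.70 at 6 h. Dusp5 spanned 1.01, and Hipk3 (0.990), Lpgat1 (0.968) and N4bp2 (0.968) were most like it, with differences of -0.48, -0.59 and -0.61 at 3 h. These correlations run over 4 groups of 3 arrays and mainly follow the group means, so they are given as descriptions.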

How the data were processed

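Total RNA of 12 samples, 4 groups of 3, carried a biotin label and was measured on Affymetrix arrays. The deposited values are probe set intensity on a linear scale, made by the authors with RMA, per the submitters' processing notes. The RMA version is, like the scan dates and genome build, not given in the sources used here. RMA includes quantile normalization, so a shift of all transcripts would not show. Intensities are not corrected for probe affinity, so levels are compared between groups and not between genes.

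Of 45101 probe sets, 64 were controls, 34945 had a single symbol, 932 had several symbols, and 9160 had no gene symbol in the probe annotations. Here log2 was taken, 1 probe set per gene was kept by highest mean (18193 genes, 9010 with more than 1), and 4 group means were fitted to the 12 arrays (lmFit and eBayes of limma 3.58.1, R 4.3.3). Adjusted p-values are Benjamini-Hochberg over all genes, and 95% intervals are from the moderated test. No detection calls were used. The script was tested on simulated data.

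The members and gene lists were chosen with earlier results of these data known. All members are named. Of each list up to 4 genes called at 3 h or 6 h with the largest change are named, and for the likeness the 3 genes of highest r.

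Replicate numbers come from the labels. Deviations of equally numbered arrays correlated at 0.242 to 0.381 between compounds at 3 h, 0.287 to 0.391 at 6 h, and 0.322 to 0.502 between times with HF, so the numbers were taken to pair these arrays. Between times with MAZ1310 they correlated at 0.0289 to 0.252, above 0.1 in 2 of 3 pairs and lowest for replicate 3. Equal numbers link these arrays as well, through the HF arrays, so their pairing is less clear. The fit given has no block, so its SE, intervals and calls do not use this pairing. Alternatives were averaging a gene's probe sets, using only those without a suffix, testing each probe set on its own, cyclic loess, a dim-gene filter, only the groups compared, eBayes with trend and robust, a replicate block alone or with the actin difference, and leaving out arrays or replicate numbers. The number of arrays limits the precision.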

Additional observations from a re-analysis of the deposited data

Results flagged for a closer look

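The difference between HF and MAZ1310 for Ier3 was not the same at both times. It was -0.07 ± 0.13 at 3 h and -1.69 ± 0.13 at 6 h, and the difference of these effects, -1.62 ± 0.18, passed limma's test (adjusted p = 0.00071). HF was lower than MAZ1310 in 3 of 3 equally numbered pairs at 6 h. The 10 measured T cell markers had a median of -0.51 at 6 h, and 8 of them were called lower, against 11.7% of all genes. Their part in the result for Ier3 was not tested.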

How the results depend on the processing

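Of 950 recomputed member values, 854 kept their direction and side of the threshold, 40 lost and 29 gained a call, and 27 changed sign. The count called at 3 h was 5 with the replicate block, 1 with the block and actin difference, and 1 to 4 when arrays were left out. The count for the difference of effects was 2 after cyclic loess, with the filter on dim genes, with eBayes trend and robust, with the replicate block and with the block and actin difference, in each case Nr4a1 and Ier3, and 1 to 2 when arrays were left out. The count over time with HF was 8 with the replicate block and 3 to 6 when arrays were left out. At 6 h it was 4 to 8 over all alternatives, and over time with MAZ1310 5 to 7. Shares of all genes called are not given for these alternatives, so the counts are not set against them. With the block and actin difference signs turned for Nr4a1 (-0.11), Ier5 (-0.08) and Dusp2 (-0.13) at 3 h, Dusp6 at 6 h (0.12) and Ier5 over time with HF (0.02). The mean of probe sets turned Ier5 over time with HF (0.07). Values that changed sign when arrays were left out ran from -0.05 to 0.15 for Nr4a1, -0.02 to 0.26 for Ier5, -0.04 to 0.19 for Dusp2, -0.34 to 0.04 for Dusp1 and -0.17 to 0.04 for Ier3 at 3 h, and from -0.26 to 0.14 for Dusp6 at 6 h. Over time they ran from -0.19 to 0.17 for Dusp1 and -0.35 to 0.12 for Dusp6 with MAZ1310, and from -0.01 to 0.37 for Dusp6 with HF. None of these values was called, and the cause was not tested. The paired fit with the replicate block changed no other call of these genes than those given beside their results. For the over-time comparison with MAZ1310 it is a fit of numbers whose pairing is less clear. In the 5 lists, the counts called ran over the alternatives from 0 to 2 (1) for other phosphatases, 0 to 5 (3) for feedback inhibitors, 1 to 4 (4) for the MAPK cascade, 1 to 7 (4) for the calcineurin list and 4 to 18 (16) for immediate early genes at 3 h, with the given count in parentheses. Those at 6 h ran from 0 to 4 (2), 1 to 7 (6), 2 to 8 (6), 4 to 10 (8) and 14 to 24 (22). Calls lost when single arrays were left out were those of Map2k2 at 3 h (MAZ1310 replicate 3, HF replicates 2 and 3) and, at 6 h, Dusp10 (MAZ1310 replicate 3, HF replicates 1 and 2), Dusp19 (MAZ1310 replicate 3, HF replicates 2 and 3), Lax1 (MAZ1310 replicates 2 and 3, HF replicate 1) and Spred3 (replicates 2 and 3 of both compounds). Signal near the array median limits the dim probe sets of Nr4a2 and Nr4a3, and may limit Ier3 with HF at 6 h (7.57 to 7.97).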
